A study of Homo sapiens with 8 samples.

Results

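MB157R cells kept for 14 days in a γ-secretase inhibitor (GSI) were compared with cells kept in its vehicle, DMSO, over every knockout of a genome-wide CRISPR library. MB157R is a GSI-resistant derivative of the triple-negative breast cancer line MB157. The screen asked which gene losses alter the growth of resistant cells under NOTCH inhibition. The comparison takes 6 of the 8 libraries of the series and was set by treatment and day alone, with no measured value used to choose them: 3 cultures in DMSO and 3 in the GSI LY3039478 at 10 µM, all harvested at day 14. The other 2 libraries, taken at T0 when treatment began, were not part of the comparison. They entered the count filter for guides, the common reference for levels and a joint fit tried as an alternative. All cultures carried Cas9 with its blasticidin resistance and the GeCKOv2 guides with their puromycin resistance, and all came from 1 transduced and selected pool. Replicates are therefore separate cultures of that pool. P-values that compare libraries measure the spread between these cultures, not between independent transductions. Those that combine the guides of a gene have guides as their units, as given below. The line is a single resistant derivative, and guide counts hold no expression values, so the labelled cell type could not be checked against markers.

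γ-Secretase is a protease complex within the membrane that cuts NOTCH receptors after a sheddase has removed their outer part. The freed intracellular domain enters the nucleus, binds RBPJ and switches on target genes such as the HES and HEY repressors. In a pooled knockout screen each cell carries 1 guide, so the share of a guide's reads in the genomic DNA follows the growth and survival of cells that lost its gene. A guide with fewer reads in GSI than in DMSO marks a knockout that did worse under the drug than under vehicle, and a guide with more reads marks one that did better.

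Depth at day 14 ranged from 12.1 M to 18.2 M counts per library (M, 1e+06), and the median guide had 66 to 112 counts. The share of guides at a count of 0 was 2.64% to 3.94% in DMSO and 0.738% to 2.40% in GSI, without overlap. A guide against VPS33B took 38.8% of all counts in GSI replicate 1 and 0.0938% to 0.635% in the other day 14 libraries. Normalization used the median ratio of each guide's count to its mean over the 6 libraries, which 1 such guide hardly moves. Of 119461 guides, 116852 had a mean count of at least 10 over the 8 libraries and were tested, and 18570 of 18913 genes had at least 4 such guides. The other 343 genes were not tested.

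No guide passed the test, and no gene did. Guide counts were compared with edgeR's quasi-likelihood test, and the calls at an adjusted p under 0.05 numbered 0 lower and 0 higher of 116852 guides (0% on each side). At an unadjusted p under 0.05, 1726 guides were lower and 1786 higher in GSI, and DESeq2 also called none after adjustment. The guides of a gene were combined by robust rank aggregation (RRA), which asks on each side whether they crowd at the extreme of the ranking of all guides. Its p is exact for guides placed at random in that ranking, so its units are guides and not cultures. Calls at an adjusted RRA p under 0.05 were 0 lower and 0 higher of 18570 genes (0% on each side). An unadjusted RRA p under 0.05 was found for 948 genes on the low side (5.11%) and 930 on the high side (5.01%). The study uses a pair of thresholds on unadjusted p. With the stricter, an RRA p under 0.001 with a log2 fold change beyond 1, there was 1 gene on the low side (0.00539%), TRIM65, and 10 on the high side (0.0539%). Leaving out single libraries gave 0 to 5 genes on the low side, with 0 without DMSO replicate 3 or GSI replicate 2, and 5 to 12 on the high side. With the looser, an RRA p under 0.01 and the same fold, there were 3 genes on the low side (0.0162%), HM13, SOX2 and TRIM65, and 27 on the high side (0.145%). The looser counts moved widely when single libraries were left out. On the low side they ran from 3 to 35, the highest without GSI replicate 1, with 13, 11 and 21 without DMSO replicate 1, DMSO replicate 2 and GSI replicate 3. On the high side they ran from 31 to 70 and were 64 to 70 without a DMSO culture.

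The 999 non-targeting controls that were tested give the spread that guides without a target show. Their log2 fold change had a median of -0.08 and an SD of 0.42, against an SD of 0.75 for guides that target genes. At an unadjusted p under 0.05, 13 controls were lower and 8 higher, or 2.10%, against 3.03% of gene-targeting guides. Thus gene guides varied more than the controls, and they passed an unadjusted threshold slightly more often. Both kinds were not matched for count. A HAUS4 guide with 0 in every DMSO library had 7.88, and the part of low counts in the spread was not tested.

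Each gene is given by the middle value of its guides' log2 fold changes, GSI over DMSO, with their SD as the error. Over all genes it had a median of -0.02, an SD of 0.30, and a range of -1.40 to 2.48. Large differences lay mostly on the high side, with 60 genes above 1 and 10 below -1. Those 10 were HM13, NOTCH3, SOX2, TIMM13, TLX2, CTNNA2, TRIM65, WDR55, ACTB and SMARCD1, of which NOTCH3, TLX2, CTNNA2, WDR55 and ACTB are named here after their values were seen. Agreement of all guides of a gene leaned to the low side, with all guides lower for 415 genes (2.24%) and all higher for 315 (1.70%). For the mean log2 level of a gene per library, the 95% interval of the difference between GSI and DMSO had a median half-width of 0.63, as fitted with limma. For a typical gene with 3 against 3 libraries, the interval of a smaller difference thus included 0, before any adjustment. Larger differences were not detected either, since limma called no gene after adjustment over all genes.

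**Figure D1:**
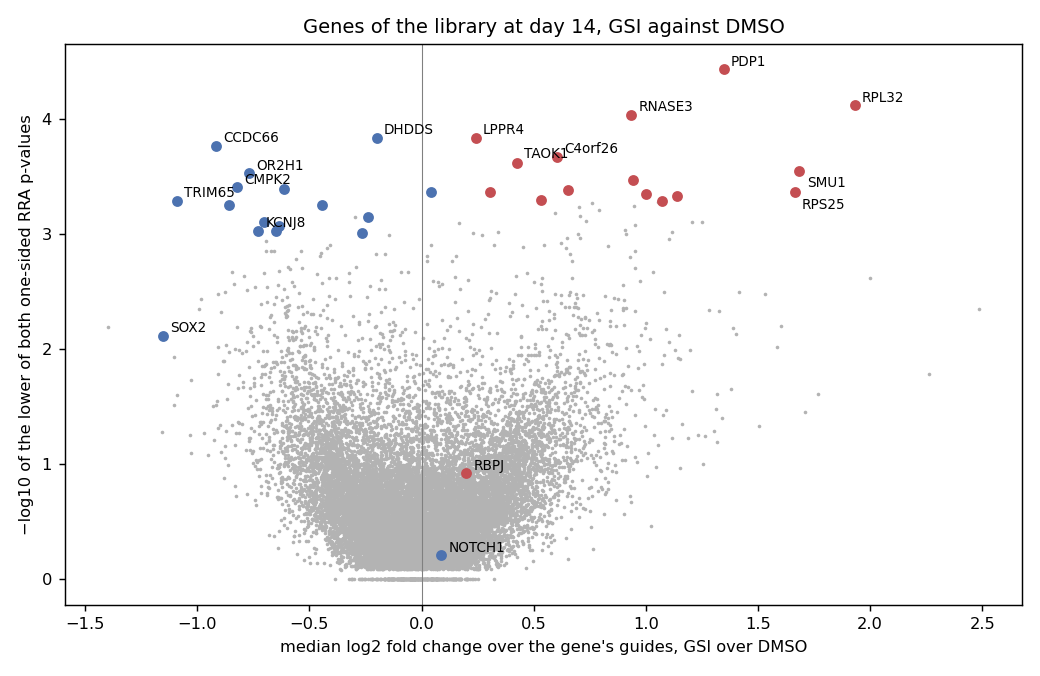
Each point is 1 of 18570 genes, with the middle log2 fold change among its guides (GSI over DMSO) on the x axis and −log10 of the lower of its low-side and high-side RRA p on the y axis. Colour marks the 15 genes of lowest p per side and SOX2, NOTCH1 and RBPJ, blue where the low side and red where the high side had the lower p. PDP1 and RPL32 stand highest on the right, SOX2 lies at -1.15 on the x axis, and NOTCH1 and RBPJ lie near the middle.

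On the low side, the 15 genes of lowest RRA p all had an adjusted p of 0.939. OR2H1 (chromosome 6, 29457155 to 29464328, GRCh38) codes for an olfactory receptor, a class that breast cells are not known to need. Mean normalized counts of its 6 guides were 171, 178 and 155 in DMSO replicates 1 to 3 and 112, 126 and 83.8 in GSI replicates 1 to 3. All 3 GSI cultures lay under all 3 DMSO cultures, and all 6 guides were lower, at -0.77 ± 0.38 on the log2 scale, with an exact RRA p of 0.000293. KCNJ8, the pore of a potassium channel gated by ATP, had counts of 154, 156 and 151 in DMSO and 106, 77.4 and 94.8 in GSI. These groups did not overlap either, and the fold change was -0.73 ± 0.57 with all 6 guides lower (exact RRA p = 0.000932).

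TRIM65 (chromosome 17, 75880335 to 75896951), an E3 ubiquitin ligase, had the largest fold change among those 15, at -1.09 ± 1.19 (exact RRA p = 0.000509). Its counts were 82.8, 72.8 and 109 in DMSO and 57.9, 39.8 and 60.9 in GSI, so the groups lay apart with 5 of 6 guides lower. CCDC66 (chromosome 3, 56557161 to 56621837), a protein of centrosomes and microtubules, had -0.92 ± 0.87 and an exact RRA p of 0.00017. CMPK2, a nucleotide kinase of mitochondria that interferon induces, had -0.82 ± 0.55, and DDX60, an antiviral helicase that interferon also induces, had -0.70 ± 0.55. ARPP19, which inhibits the PP2A phosphatase at mitotic entry, had -0.44 ± 0.81. USP3, which removes ubiquitin from histone H2A, had -0.65 ± 0.77, and ACKR3, a decoy receptor for the chemokine CXCL12, had -0.26 ± 0.97 with all 6 guides lower.

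DHDDS and ZNF322 had few guides at the extreme. DHDDS (chromosome 1, 26432282 to 26471306), a subunit of the enzyme that makes dolichol for protein glycosylation, had the lowest RRA p of that side, 0.000144, with a fold change of -0.20 ± 3.13. Normalized counts of its strongest guide were 11.7, 143 and 71.1 in DMSO and 2.59, 0 and 0 in GSI. Over all 6 guides, mean counts were 126, 104 and 73.1 in DMSO and 124, 66.7 and 64.0 in GSI, which overlap. For ZNF322, a zinc finger gene, 2 of 6 guides were lower, 1 of them from 205, 444 and 248 in DMSO to 112, 46.8 and 42.9 in GSI, and the median of its guides was 0.04.

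On the high side, the 15 genes of lowest p included RPL32, RPS25 and RPL26, proteins of the cytosolic ribosome, MRPS21 of the mitochondrial ribosome, and SMU1, a splicing factor. PDP1 had the lowest p of all genes (exact RRA p = 3.67e-05, adjusted 0.523). It is the phosphatase that reactivates the pyruvate dehydrogenase complex, the entry of glycolytic carbon into the citric acid cycle. Mean counts of its 6 guides were 32.9, 25.0 and 44.5 in DMSO and 44.3, 93.0 and 79.0 in GSI, where GSI replicate 1 lay within the DMSO range and the other 2 above it. In mean log2 level every GSI culture lay above every DMSO culture. The log2 fold change was 1.35 ± 2.26 with 5 of 6 guides higher. Without GSI replicate 1 the adjusted p of PDP1 was 0.0457 at a fold change of 1.70, and it was then the 1 gene called.

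RPL32 (chromosome 3, 12834485 to 12841582) had few reads in DMSO, at 6.58, 10.9 and 24.5 normalized counts per guide, and 39.7, 35.4 and 41.1 in GSI. All 5 tested guides were higher in GSI, with a fold change of 1.93 ± 1.93 (exact RRA p = 7.52e-05). A guide with 0 in every DMSO library counted as higher through 23.0 in GSI replicate 3, with 0 in the other GSI libraries. Another had 13.8, 0.867 and 0 in DMSO and 38.9, 45.3 and 0 in GSI. RNASE3, a ribonuclease of eosinophil granules, had 73.4, 71.5 and 83.7 in DMSO and 131, 139 and 149 in GSI. Those groups lay wide apart, and all 6 guides were higher (0.93 ± 0.32, exact RRA p = 9.12e-05). The difference in mean log2 level of RNASE3 was 1.07 (95% interval 0.39 to 1.75, limma, adjusted p = 0.961).

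SMU1 (chromosome 9, 33041765 to 33076674) had a fold change of 1.68 ± 2.40 and RPS25 one of 1.66 ± 2.06, each with 4 of 6 guides higher. MRPS21 had 1.14 ± 1.01 with 44.6, 50.4 and 48.1 counts in DMSO and 80.4, 73.4 and 66.0 in GSI. RBM15B, part of the complex that writes the m6A mark on RNA, had 65.5, 61.3 and 65.6 in DMSO and 97.5, 122 and 105 in GSI. ADAMTSL4, a secreted matrix protein that the study counts in its Notch signature, had 54.5, 61.4 and 45.4 in DMSO and 86.9, 101 and 95.2 in GSI (1.07 ± 0.87). In MRPS21, RBM15B and ADAMTSL4 the groups did not overlap.

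TAOK1, a kinase upstream of p38 and Hippo signalling, was split among its guides, 3 higher and 3 lower, and its counts of 142, 235 and 318 in DMSO overlapped 273, 451 and 333 in GSI. MTPN, an inhibitor of actin capping, had 117, 100 and 95 in DMSO and 257, 142 and 81.7 in GSI. A guide with 1049 counts in GSI replicate 1 leads that spread. In mean log2 level MTPN did not overlap, with 5.25, 5.30 and 5.26 in DMSO and 6.39, 6.29 and 5.97 in GSI. LPPR4 (now PLPPR4), a lipid phosphatase-related protein of neurons, had 1 guide far above the rest, with 17.0, 20.8 and 6.56 counts in DMSO and 53.2, 261 and 177 in GSI. Of the genes that passed the study's stricter threshold on the high side but not the rule for naming, given after their values were seen, RARA, a retinoic acid receptor, had 1.05, THOC3, of an mRNA export complex, had 1.25, and WDR25 had 1.12.

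**Figure D2:**
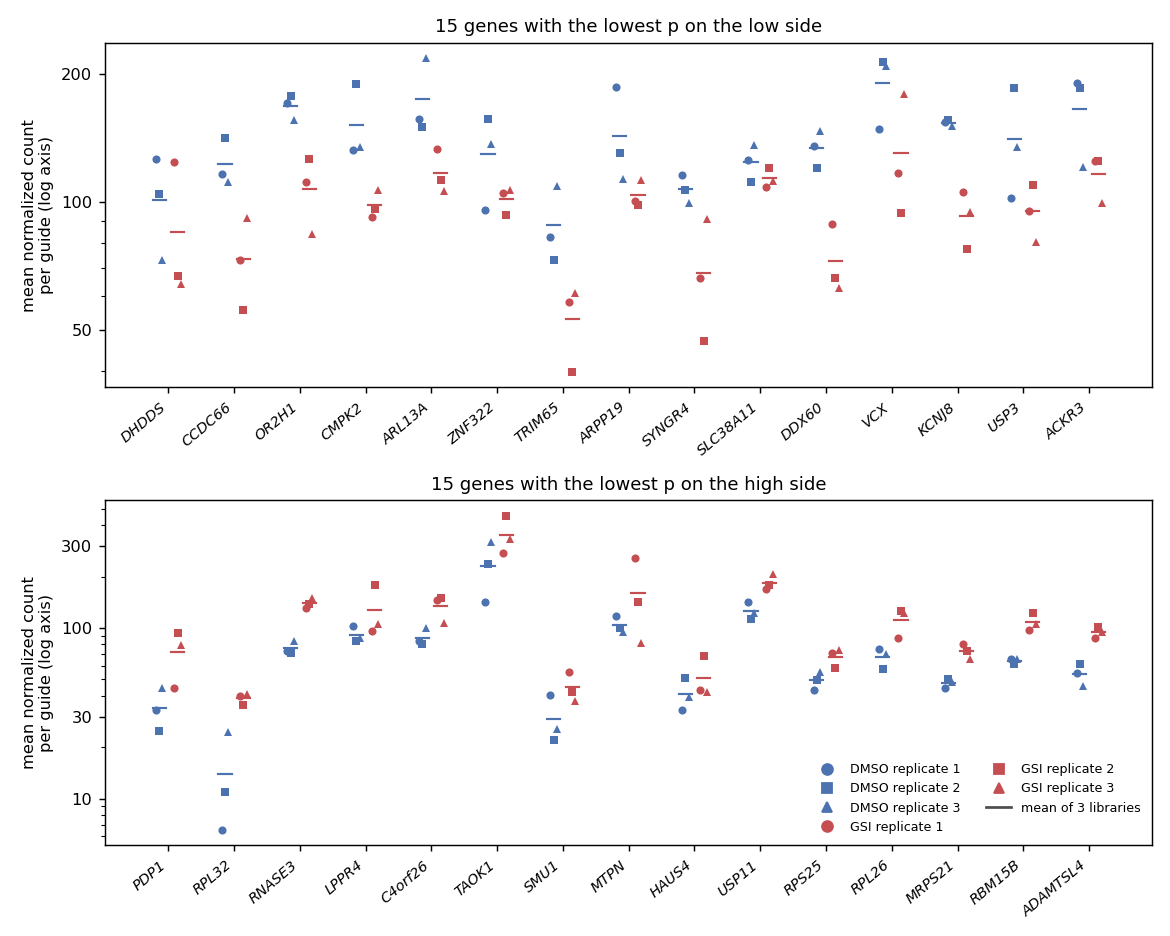
Mean normalized count per guide (y axis, log scale) of the 15 genes of lowest RRA p on the low side (upper panel) and on the high side (lower panel), with 1 point per library, marker shapes for replicates 1 to 3 and a bar for the mean of 3. OR2H1, CMPK2, TRIM65 and KCNJ8 show GSI under DMSO in every culture, DHDDS overlaps, and RPL32, RNASE3 and MRPS21 show GSI above DMSO in every culture.

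SOX2 (chromosome 3, 181711925 to 181714436, a gene of 1 exon), a transcription factor of pluripotent and neural stem cells, lay among the 10 genes below -1. Mean normalized counts of its 4 tested guides were 98.2, 70.2 and 69.2 in DMSO and 47.0, 35.5 and 58.1 in GSI. Every GSI culture lay under every DMSO culture. The value of the gene was -1.15 ± 0.85 with 3 of 4 guides lower, and the exact RRA p of 0.00758 gave rank 147 on the low side and an adjusted p of 0.939. In the mean log2 level, the difference was -0.93 (95% interval -1.70 to -0.16, limma, adjusted p = 0.961).

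The SOX2 guides differed in size. The strongest guide had 121, 83.3 and 88.6 in DMSO and 54.5, 26.1 and 23.0 in GSI, and the next had 47.8, 111 and 82.0 in DMSO and 27.2, 22.2 and 36.9 in GSI. Another guide overlapped between groups, with 108, 27.8 and 74.4 against 35, 5.37 and 77.9, and the last was higher in the mean, with 116, 59.0 and 31.7 against 71.3, 88.2 and 94.8. The library holds 2 more SOX2 guides that the count minimum removed. With them the SOX2 log2 fold change was -0.27 and its exact RRA p 0.0213, so the size of the difference depends on the count filter.

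Of the 20 SOX genes, all tested, 14 had a negative and 6 a positive fold change, with a median of -0.12 against -0.02 for all genes. SOX2 and SOX21, which belongs to the same wider branch of the family, had an unadjusted p under 0.05 on the low side, and none did on the high side. SOX21 counts of 107, 78.2 and 70.9 in DMSO overlapped 96.0, 41.3 and 71.2 in GSI (-0.21 ± 0.78). Without GSI replicate 2 the SOX median lay 0.01 above that of all genes, so the lean of the family rests on that library. Among 19 other pluripotency factors none had an unadjusted p under 0.05 on either side.

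Guides against the target of the drug itself gave small differences. Results are given for 5 genes of the complex. PSEN2, which codes for a catalytic subunit, had a fold change of -0.34 ± 0.38 with 5 of 6 guides lower. NCSTN, the subunit that receives substrates, had -0.26 ± 0.85 with all 6 guides lower, and PSENEN had -0.11 ± 0.51. APH1A and APH1B, alternative scaffold subunits, had 0.24 ± 0.48 and 0.28 ± 0.82. Of these 5, PSEN2 alone had an unadjusted p under 0.05 (exact RRA p = 0.0418, adjusted 0.959), with counts of 190, 144 and 114 in DMSO and 125, 110 and 94.0 in GSI. The groups overlapped for each of the 5 genes.

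Receptors and ligands of the pathway showed no common direction, with 5 of 12 genes negative, 7 positive and a median of 0.05. NOTCH1 itself (chromosome 9, 136494433 to 136546048) had 150, 140 and 105 counts in DMSO and 132, 136 and 124 in GSI, which overlap fully (0.09 ± 0.37). NOTCH3, another receptor, had the lowest fold change of the list, -1.16 ± 1.00 with 4 of 5 guides lower and an RRA p of 0.0528. Its counts were 66.5, 115 and 76.3 in DMSO and 48.5, 76.9 and 74.3 in GSI and overlapped. DLL1, a ligand, had 0.50 ± 1.02 (high side, exact RRA p = 0.0471). ADAM10, the main sheddase of NOTCH, had 0.13 ± 1.32 and a high-side exact RRA p of 0.0292, and HM13, a signal peptide peptidase, had -1.40 ± 1.14 (exact RRA p = 0.00635, counts of 62.5, 61.0 and 50.9 in DMSO and 35.4, 31.3 and 40.4 in GSI).

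RBPJ, the DNA-binding partner of the NOTCH intracellular domain, had 71.0, 96.6 and 137 in DMSO and 95.5, 151 and 129 in GSI (0.20 ± 0.47). Over the nuclear complex and its repressors, 8 of 15 genes were positive and 7 negative, and NCOR1, a corepressor, had 0.54 ± 0.79 (high side, exact RRA p = 0.0469). Of the 10 HES and HEY genes, 8 were negative and 2 positive, with a median of -0.16. HES2 had -0.69 ± 0.89 (low side, exact RRA p = 0.00387) and HES5 -0.68 ± 0.64 (p = 0.034). HES5 counts were 140, 130 and 99.3 in DMSO and 97.9, 87.5 and 84.2 in GSI, with every GSI culture lower, while the mean log2 level of HES5, which gives each guide equal weight, differed by only -0.19 (95% interval -0.80 to 0.42).

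Endocytic regulators of the pathway gave both directions. EPN1, an endocytic adaptor for ligands, had -0.77 ± 0.25 with all 6 guides lower, and NUMB, a brake on NOTCH, had 0.41 ± 0.63. In the study's Notch signature, 75 of 76 genes were tested, with a median of -0.09, 4 genes at an unadjusted p under 0.05 on the low side and 9 on the high side (12.0%, against 5.01% of all genes). Those on the high side included ADAMTSL4, MYEOV (0.59 ± 0.43) and ANKRD1 (0.23 ± 1.11).

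**Figure D3:**
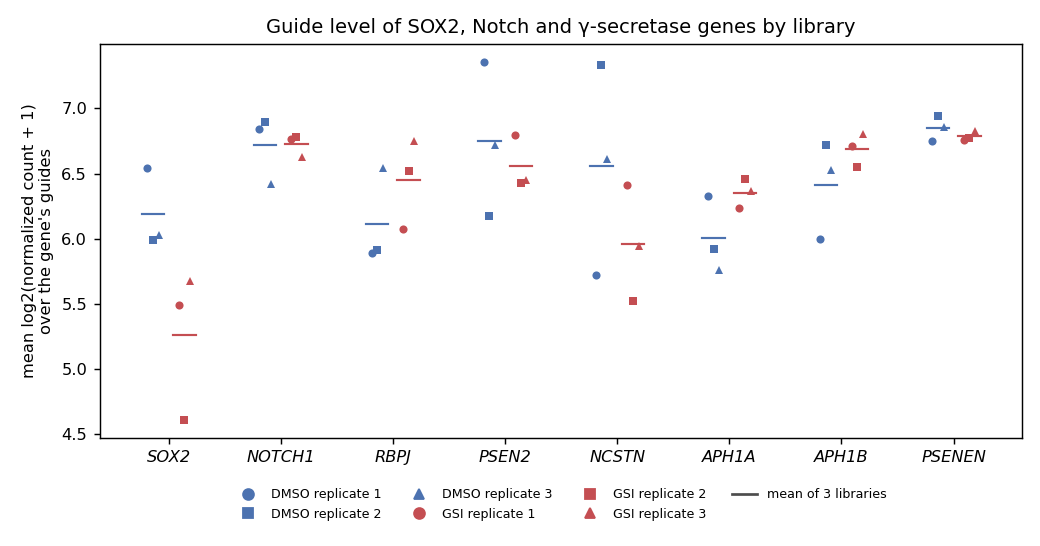
Mean log2(normalized count + 1) over the tested guides (y axis) of 5 γ-secretase genes, SOX2, NOTCH1 and RBPJ, with 1 point per day 14 library, marker shapes for replicates 1 to 3 and a bar for the mean of 3. SOX2 is the 1 gene of the 8 whose GSI points all lie below its DMSO points.

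For groups of genes, 72 lists were described by the median of their tested members and by the members at an unadjusted RRA p under 0.05, beside the 5.11% of genes that reach this on the low side and the 5.01% on the high side. No member of a list passed after adjustment. A second description counts genes whose mean log2 levels did not overlap between the groups, which held for 549 genes with GSI lower (2.96%) and 1297 with GSI higher (6.98%). Overlap stated beside the counts of a single gene refers to those counts, for which no share over all genes is given. Medians above 0.1 were found for 17 lists and below -0.1 for 11. Most of the former hold genes that proliferating cells need for making, processing and degrading RNA and protein.

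Proteins of the large ribosomal subunit had the highest median of the lists with at least 20 tested members, 0.30, with 33 of 45 tested genes positive. On the high side 6 had an unadjusted p under 0.05 (13.3%) and on the low side none, and 9 did not overlap with GSI higher. RPL3, at the peptidyl transferase centre, had 10.9, 13.2 and 1.91 counts in DMSO and 24.0, 15.2 and 12.5 in GSI, which overlap, with a fold change of 2.26 ± 2.44. RPL26 had 75.6, 57.4 and 70.7 in DMSO and 87.1, 125 and 122 in GSI, without overlap. The lean of this list rests largely on GSI replicate 1. Without that library its median above all genes was 0.07, against 0.32 with it. Without DMSO replicate 2 it held 3 members on the high side, and with a count minimum of 50 it held 2.

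The small subunit had a median of 0.12 with 19 of 31 tested genes positive, and 3 on the high and 1 on the low side at an unadjusted p under 0.05. RPS16 had 0.99 ± 0.79 and RPS7 0.21 ± 2.42, while FAU, which codes for a ubiquitin-like protein fused to a ribosomal protein, had -0.39 ± 0.91. Without GSI replicate 1 the median of the small subunit lay below that of all genes by 0.08 in log2 units, the value relative to all genes being -0.08 against 0.14 with that library. Its direction is thus not settled by these libraries.

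Factors that build ribosomes had a median of 0.17, with 31 of 46 genes positive and 5 against 1 at an unadjusted p under 0.05. NOP16, a nucleolar protein, had 17.9, 22.8 and 21.5 in DMSO and 49.7, 59.1 and 41.6 in GSI, and all 6 guides were higher (1.60 ± 1.02). PES1, of the complex that matures large subunit RNA, had 37.5, 16.6 and 21.9 in DMSO and 44.7, 79.9 and 43.1 in GSI (1.13 ± 0.92). Both genes lay apart between groups. GNL3, a nucleolar GTPase, was the exception on the low side (-0.58 ± 1.81). The median of the list above all genes was 0.19 but 0.06 without GSI replicate 2 and 0.09 without DMSO replicate 3, and without the latter 2 members were on the high side and 3 on the low side.

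Initiation and elongation factors had a median of 0.15 with 4 genes on the high side and none on the low side, among them EIF3E (0.99 ± 0.62) and EIF2B1 (0.91 ± 2.36). Their median above all genes was 0.17 and dropped to 0.03 without DMSO replicate 2. The tRNA synthetases, which load amino acids on tRNA, had a median of 0.18 with 29 of 40 genes positive, 5 against 0 at an unadjusted p under 0.05, and 10 genes without overlap and GSI higher (against 6.98% of all genes). LARS2, the mitochondrial leucine enzyme, had 25.7, 40.9 and 35.7 in DMSO and 47.3, 66.5 and 62.1 in GSI, with all 6 guides higher (0.77 ± 0.29). The synthetase median above all genes lay between 0.15 and 0.23 over the other settings, though the high side held 2 members without DMSO replicate 3 and 3 without DMSO replicate 2.

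Subunits of the proteasome, which degrades ubiquitinated proteins, had a median of 0.24 with 25 of 33 tested genes positive. On the high side 6 had an unadjusted p under 0.05 (18.2%) and on the low side none. PSMB1, a core particle subunit, had 37.0, 32.5 and 26.4 in DMSO and 54.0, 70.6 and 46.1 in GSI, without overlap (1.21 ± 2.79, exact RRA p = 0.00078). The proteasome median above all genes was 0.26 and ranged from 0.22 to 0.33 over the other settings, and it was 0.27 without GSI replicate 1. With a count minimum of 50 instead of 10, however, 1 proteasome gene had an unadjusted p under 0.05 on the high side, and there were 3 without DMSO replicate 2 and 2 without GSI replicate 2. Cullins and the neddylation enzymes that activate them had a median of 0.20 with 22 of 30 genes positive and 3 against 0. All 6 guides of CUL7 were higher (0.60 ± 0.14), and UBE2M, the conjugating enzyme for NEDD8, had 26.5, 33.1 and 13.5 in DMSO and 52.7, 42.6 and 34.1 in GSI.

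Chaperones included several high members although the list had a median of only 0.08. The CCT chaperonin, HSP70 and HSP90 list held 6 of 30 genes at an unadjusted p under 0.05 on the high side (20%) and 1 on the low side. CCT8, a chaperonin subunit, had 113, 92.2 and 84.2 in DMSO and 154, 173 and 127 in GSI. STIP1, which links HSP70 to HSP90, had 35.7, 40.3 and 44.7 in DMSO and 62.5, 75.4 and 78.5 in GSI, with all 6 guides higher (1.15 ± 0.54). HSP90AA1 had -0.26 ± 0.51.

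**Figure D4:**
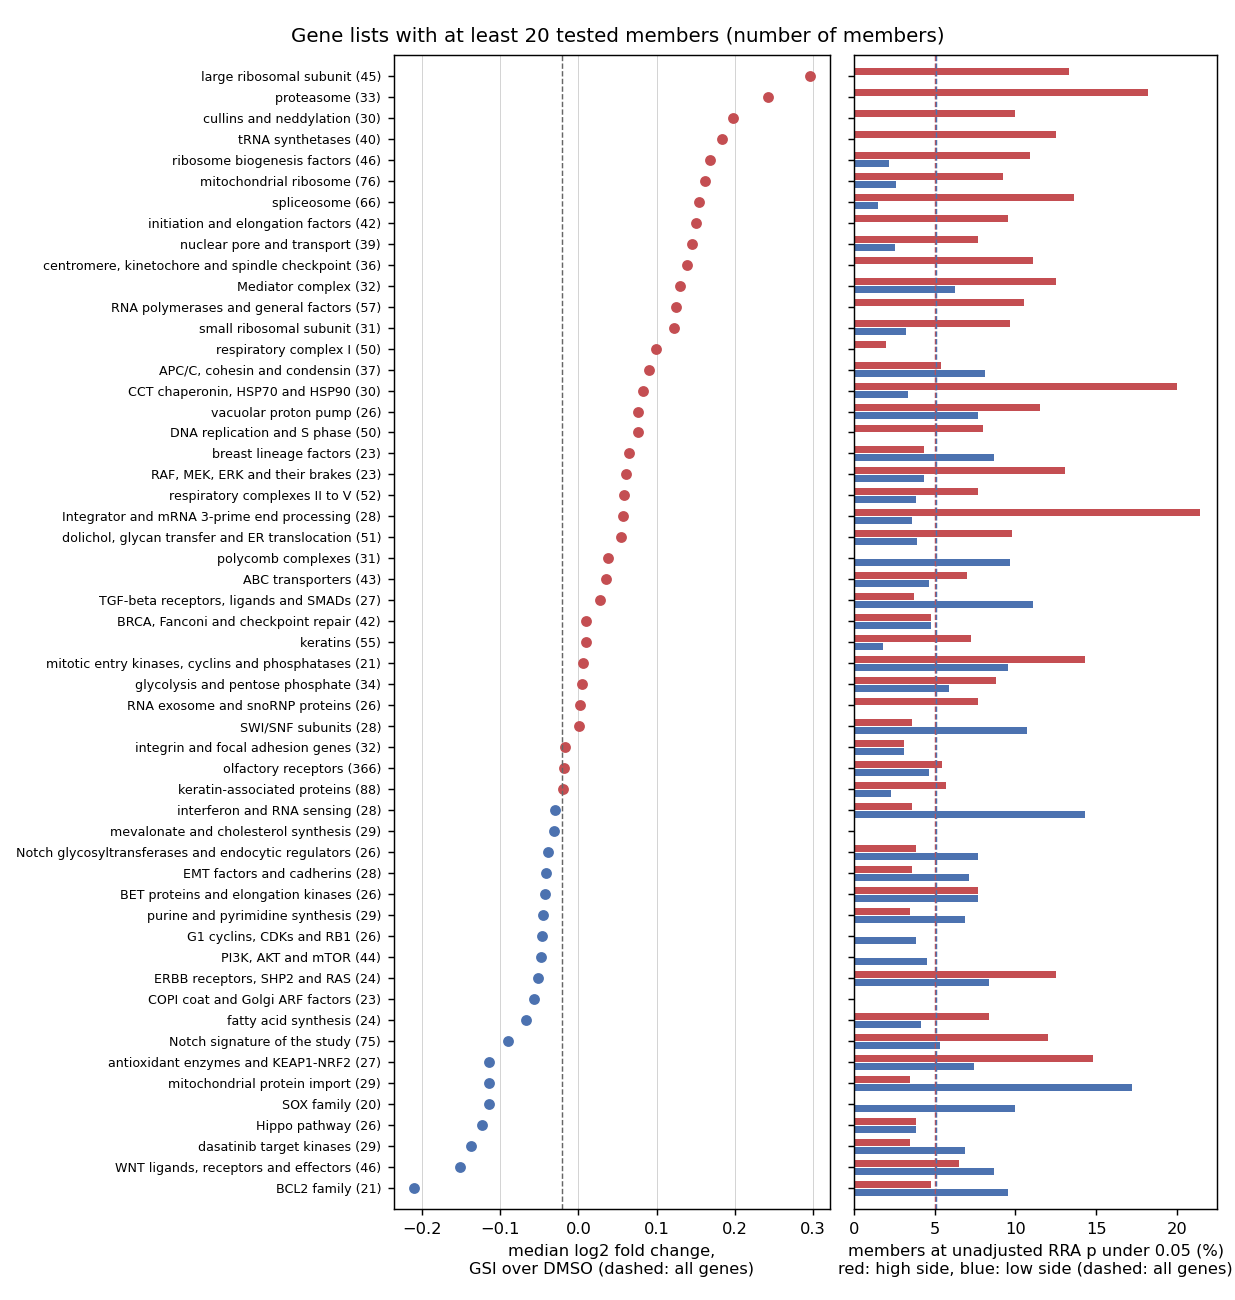
Gene lists with at least 20 tested members (number in brackets), ordered by the median log2 fold change of their members, GSI over DMSO (left, dashed line for all genes), with the share of members at an unadjusted RRA p under 0.05 on the high side (red bars) and low side (blue bars, right, dashed lines for all genes). The large ribosomal subunit is at the top with a median of 0.30 and the BCL2 family at the bottom with -0.21.

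In RNA processing, the spliceosome had a median of 0.15 with 43 of 66 genes positive, 9 on the high side (13.6%) and 1 on the low side at an unadjusted p under 0.05. SYF2 had 42.1, 41.1 and 28.3 in DMSO and 57.3, 63.8 and 77.2 in GSI with all 6 guides higher (0.90 ± 0.44). DHX8, a helicase that releases spliced mRNA, had 31.6, 22.9 and 30.6 in DMSO and 53.4, 63.5 and 67.9 in GSI. In both, every GSI culture was higher. Without overlap and with GSI higher were 13 spliceosome genes, and 1 with GSI lower. The median above all genes was 0.17 and stayed between 0.10 and 0.24 over the other settings, though with a count minimum of 50 only 1 member had an unadjusted p under 0.05 on the high side.

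Integrator and genes of mRNA 3-prime end processing had 6 of 28 members on the high side (21.4%) and 1 on the low side, with a median of 0.06. INTS8 had 28.7, 32.5 and 36.8 in DMSO and 60.3, 55.1 and 57.7 in GSI (0.97 ± 0.81), whereas INTS4, another subunit of the same complex, had 139, 119 and 162 in DMSO and 108, 61.6 and 84.5 in GSI (-0.66 ± 1.25, low side, exact RRA p = 0.0014). Both subunits lay apart between groups in these counts, in opposite directions. Of the m6A genes 11 of 15 were positive, and METTL3, the catalytic writer, had 1.10 ± 2.10 beside RBM15B, though its counts of 67.2, 81.1 and 72.9 in DMSO overlapped 91.0, 48.7 and 83.2 in GSI. For genes of microRNA processing the median was -0.18 over 13 genes, and all 6 guides of TARBP2, a DICER partner, were lower (-0.57 ± 0.36).

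RNA polymerases and general factors had a median of 0.12, with 6 of 57 genes at an unadjusted p under 0.05 on the high side and none on the low side. POLR3A, the largest subunit of RNA polymerase III, had 18.4, 15.2 and 11.8 in DMSO and 34.6, 39.3 and 30.9 in GSI, with all 6 guides higher (1.53 ± 0.76). Without GSI replicate 1 the median of the list relative to all genes was -0.11 against 0.15 with it, and with a count minimum of 50 it was -0.05, so its direction turned. Mediator had a median of 0.13, with 4 genes on the high and 2 on the low side. MED20 had 0.60 ± 0.56, and MED19 had 70.1, 71.8 and 73.5 in DMSO and 54.3, 35 and 59.6 in GSI (-0.68 ± 0.86). The Mediator median above all genes was 0.15 but 0.01 with a count minimum of 50 and 0.07 without DMSO replicate 3, and without GSI replicate 1 the list held 3 members on the high side and 5 on the low side.

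In the cell cycle, centromere, kinetochore and checkpoint genes had a median of 0.14 with 4 of 36 tested on the high side and none on the low side. CENPW had 1.2 ± 1.61 and MAD2L1, a spindle checkpoint protein, 1.39 ± 2.74. CCNA2, the cyclin of S phase and mitotic entry, had 30.5, 13.0 and 9.84 in DMSO and 50.6, 48.9 and 47.2 in GSI, far apart (2.0 ± 1.54 over 4 guides, mean log2 difference 2.06, 95% interval 0.96 to 3.16). MASTL, the kinase that acts through ARPP19, had 46.9, 67.9 and 55.8 in DMSO and 66.1, 77.5 and 101 in GSI (0.54 ± 0.65), on the other side from ARPP19 itself. The lean of the kinetochore list depends on single libraries: its median above all genes was 0.16 but 0.07 without DMSO replicate 1 and also 0.07 without DMSO replicate 2, and without GSI replicate 1 it held 2 members on the high side and 3 on the low side. For G1 cyclins and their kinases the median was -0.05. CDK6, a kinase of G1 phase, had 204, 166 and 153 in DMSO and 137, 163 and 125 in GSI, which overlap (-0.32 ± 0.75). In mean log2 level every GSI culture of CDK6 lay below every DMSO culture.

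DNA replication genes had a median of 0.08, with 4 of 50 genes on the high side and none on the low side at an unadjusted p under 0.05, and 0.02 above all genes without GSI replicate 1. PRIM1, a primase subunit, had 95.8, 62.2 and 58.2 in DMSO and 118, 110 and 116 in GSI, without overlap (0.69 ± 0.31 over 4 guides). PCNA, the sliding clamp, had 13.4, 15.2 and 11.7 in DMSO and 24.4, 27.2 and 27.0 in GSI, and all 6 guides were higher (1.77 ± 1.48, high side, exact RRA p = 0.0242). PCNA is named after its values were seen. Repair genes were balanced, with 2 of 42 on each side.

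In mitochondria, ribosomal proteins had a median of 0.16 with 56 of 76 genes positive, and 7 on the high and 2 on the low side at an unadjusted p under 0.05. Beside MRPS21, MRPL50 had 0.74 ± 0.78, and MRPS27 had -0.19 ± 0.90 with 5 of 6 guides lower. The median above all genes was 0.18 and lay between 0.10 and 0.22 over the other settings, 0.17 without GSI replicate 1. Complex I of the respiratory chain had 32 of 50 genes positive and a median of 0.10, with 1 gene on the high side. By fold change, mitochondrial protein import leaned the other way, with a median of -0.12. On the low side 5 of 29 tested genes had an unadjusted p under 0.05 (17.2%), against 1 on the high side. In mean log2 level the lean was not seen, since 2 genes did not overlap with GSI higher and 0 with GSI lower. The levels of the list against T0, a measure described below, overlapped between the arms. This list was not recomputed under the other settings. TIMM13, a chaperone of the intermembrane space, had 68.7, 35.3 and 79.3 in DMSO and 28.7, 33.4 and 35.8 in GSI, an overlap by 1 library, with all 6 guides lower (-1.10 ± 0.87). MTX2, of the outer membrane, had 208, 214 and 190 in DMSO and 142, 139 and 153 in GSI (-0.41 ± 0.45), without overlap in these counts.

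For sugar metabolism, the list of glycolysis and pentose phosphate genes had a median of 0.00 and members on both sides, 3 high and 2 low. HK1, a hexokinase, had 0.70 ± 0.61 (high side, exact RRA p = 0.000986) and SLC2A1, the glucose transporter GLUT1, had 67.8, 76.2 and 64.3 in DMSO and 94.0, 101 and 131 in GSI (0.90 ± 1.04). ALDOA, an aldolase, had 1.00 ± 1.16, and SLC16A1, a lactate transporter, had -0.67 ± 0.76. Of the genes of the pyruvate dehydrogenase complex only PDP1 had an unadjusted p under 0.05.

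Antioxidant genes also gave both sides, 4 high and 2 low of 27. NQO1, a target of NRF2, had 113, 146 and 109 in DMSO and 90.3, 69.0 and 72.2 in GSI (-0.82 ± 0.68), and KEAP1, which degrades NRF2, had -0.50 ± 0.45. NQO1 lay apart in these counts, while KEAP1, with 127, 171 and 150 in DMSO and 103, 114 and 129 in GSI, overlapped narrowly. SOD1, the cytosolic superoxide dismutase, had the highest fold change of all genes, 2.48 ± 2.71, but its mean counts of 73.4, 46.1 and 76.7 in DMSO overlapped 48.6, 62.8 and 73.4 in GSI, and 2 of its 6 guides were lower. Mevalonate and COPI lists had no member at an unadjusted p under 0.05 on either side.

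In growth factor signalling, medians lay near that of all genes, at -0.05 for ERBB receptors, SHP2 and RAS and 0.06 for RAF, MEK and ERK. GRB2, an adaptor of receptor kinases, had 76.4, 81.2 and 66.9 in DMSO and 108, 113 and 86.8 in GSI (0.73 ± 0.83), and SOS1, the RAS exchange factor that GRB2 recruits, had 119, 117 and 120 in DMSO and 80.2, 93.3 and 96.5 in GSI (-0.48 ± 0.60). PTPN11, or SHP2, had guides at both extremes, with a low-side p of 0.0137 and a high-side p of 0.019. JUN, part of the AP-1 factor, had 39.5, 59.5 and 57.7 in DMSO and 60.2, 77.2 and 87.8 in GSI (0.85 ± 0.61). MYC, a target of NOTCH in several tumours, had 28.7, 22.9 and 20.6 in DMSO and 64.8, 19.8 and 27.7 in GSI (0.87 ± 1.26), where GSI replicate 1 alone stood apart.

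Lists with lower medians were fewer. The BCL2 family had -0.21 with 15 of 21 tested genes negative, among them BCL2 (-0.62 ± 0.97), which blocks apoptosis, while MCL1, with the same function, had 127, 108 and 123 in DMSO and 144, 152 and 139 in GSI (0.40 ± 2.53). WNT genes had -0.15 with 33 of 46 negative, but with 4 on the low and 3 on the high side at an unadjusted p under 0.05. CTNNB1, or β-catenin, had -0.36 ± 0.97. Hippo genes had -0.12 with 20 of 26 negative and 1 gene on each side. The 29 kinases that dasatinib binds had -0.14, and EPHA1 had -0.81 ± 0.37 with all 6 guides lower.

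Among chromatin regulators, 4 of 18 histone deacetylases and sirtuins had an unadjusted p under 0.05 on the low side (22.2%) and none on the high side. HDAC6, a deacetylase of tubulin, had -0.44 ± 0.68, SIRT5 -0.62 ± 0.50 and HDAC9 -0.34 ± 0.69, and the groups overlapped in each. Polycomb genes had 3 of 31 on the low side and 0 on the high side, but their median was 0.04, with 17 positive and 14 negative. In mean log2 level 2 of them did not overlap with GSI higher and 1 with GSI lower. CBX7 had 147, 177 and 174 in DMSO and 142, 129 and 110 in GSI with all 6 guides lower (-0.41 ± 0.19). In the SWI/SNF list, SMARCD1 had 52.4, 71.1 and 69.6 in DMSO and 32.2, 42.5 and 29.6 in GSI (-1.03 ± 0.51).

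Markers of breast lineage and of the epithelial-mesenchymal transition gave single genes rather than a shift. ESRP1, a splicing regulator of epithelial cells, had 147, 136 and 165 in DMSO and 98.6, 92.6 and 96.0 in GSI (-0.61 ± 0.37), and KRT19, a luminal keratin, had 77.9, 101 and 111 in DMSO and 56.6, 50.8 and 61.7 in GSI (-0.72 ± 0.74). In both, every GSI culture was lower. SNAI1, a factor that drives the transition, had 0.69 ± 0.64. The medians were -0.04 for transition genes, 0.07 for lineage factors and 0.05 for breast cancer stem cell markers. Of 23 lineage factors 15 were positive. At an unadjusted p under 0.05, 2 were on the low side, KRT19 and TP63, and 1 on the high side, CEBPB. In mean log2 level 4 lineage factors did not overlap with GSI higher and 1 with GSI lower. Of 16 stem cell markers 3 were on the low side (18.8%), THY1, ITGB1 and ENG, and 1 on the high side, ALDH1A1. Interferon and RNA sensing genes had 4 of 28 on the low side (14.3%), with IFNAR1, a receptor chain for type I interferon, at 154, 139 and 120 in DMSO and 111, 93.5 and 76.0 in GSI (-0.60 ± 1.04), and 1 on the high side. Of the ABC transporters, ABCC5 had 128, 121 and 144 in DMSO and 68.2, 76.3 and 71.9 in GSI, with all 5 guides lower (-0.59 ± 0.44).

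Olfactory receptors and keratin-associated proteins, which breast cells are not known to need, serve as a reference, and both lay at the median of all genes. The receptors had -0.02 over 366 tested genes, with 17 on the low side and 20 on the high side, and the keratin-associated proteins had -0.02 over 88, with 2 and 5. Members with a low unadjusted p were found there as well, OR2H1 on the low side and OR2K2 on the high side (0.66 ± 1.61, exact RRA p = 0.00147).

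Levels against T0 show the same lists by culture. Here a guide's level is its log2(normalized count + 1) minus the mean of the T0 libraries, a list is given by the median of its guides, and both arms share that reference, so only their difference bears on the drug. For the spliceosome it was -0.45, -0.42 and -0.37 in DMSO and -0.07, -0.16 and -0.08 in GSI. Proteasome guides stood at -0.45, -0.66 and -0.64 in DMSO and -0.34, -0.19 and -0.31 in GSI. The tRNA synthetases stood at -0.40, -0.47 and -0.44 in DMSO and -0.24, -0.21 and -0.32 in GSI. In each list guides were below T0 in both arms, less far in GSI, and the arms did not overlap.

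The large ribosomal subunit, the most depleted of these lists, stood at -0.76, -0.73 and -0.89 in DMSO and -0.40, -0.69 and -0.63 in GSI, where GSI replicates 2 and 3 lay only just above DMSO. Mediator stood at -0.36, -0.30 and -0.38 in DMSO and -0.12, -0.12 and -0.26 in GSI. For all genes the level was 0.22 to 0.25 in each of the 6 libraries. Over the 72 lists, which share some genes, the arms did not overlap for 15 with GSI higher. They did not overlap for 3 with GSI lower, the BCL2 family, WNT genes and polycomb, the last with a gene median of 0.04. The 15 with GSI higher included keratins, a reference list, at 0.16, 0.24 and 0.23 in DMSO and 0.27, 0.30 and 0.34 in GSI. They also included ABC transporters and the glycolysis list, whose gene median was 0.00. How many lists would separate by chance was not tested. Libraries with higher levels of the 15 lists were also those with fewer guides at a count of 0, the GSI ones. The share of such guides was 0.738% to 2.40%, against 2.64% to 3.94% in DMSO, and its part in the levels was not tested. How many divisions the cells of each arm went through is not given in the sources used here, and its part was not tested.

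**Figure D5:**
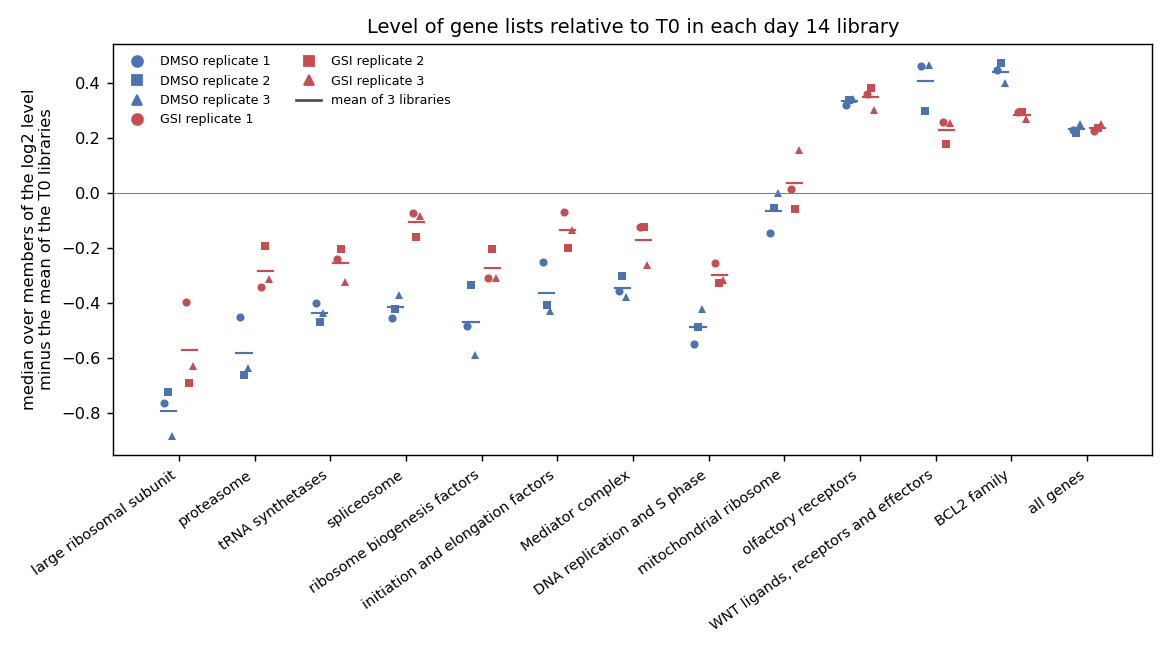
Level of 12 gene lists and of all genes relative to T0 (y axis, median over guides of log2(normalized count + 1) minus the mean of the T0 libraries), with 1 point per day 14 library, marker shapes for replicates 1 to 3 and a bar for the mean of 3. Spliceosome, proteasome and tRNA synthetase guides lie below 0 in both arms and higher in every GSI culture than in every DMSO culture. The arms overlap for olfactory receptors and likewise for all genes.

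Guides against microRNA genes were tested apart, for 1638 of 1795 microRNAs with at least 3 tested guides. Calls after adjustment were 0 on either side. An unadjusted RRA p under 0.05 was found for 58 on the low side (3.54%) and 78 on the high side (4.76%). The library cuts the hairpin gene, and what would be lost is the mature RNA, whose seed (bases 2 to 8) pairs with target mRNAs. The mature sequences of 6 hairpins among those with the lowest p are shown from RefSeq (GRCh38.p14) with the seed in capitals, to let their seeds be compared, the first 3 from the low side and the last 3 from the high side.
hsa-miR-4500: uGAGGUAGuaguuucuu
hsa-miR-642a-5p: gUCCCUCUccaaaugugucuug
hsa-miR-1-3p: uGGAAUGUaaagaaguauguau
hsa-miR-4681: aACGGGAAugcaggcuguaucu
hsa-miR-4304: cCGGCAUGuccagggca
hsa-miR-583: cAAAGAGGaaggucccauuac

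No seed was shared among these 6. The hairpin of hsa-miR-4500 (chromosome 13, mature RNA at 87618671 to 87618687) carries the seed of the let-7 family, which represses genes of stem and tumour cells. Its counts were 169, 156 and 191 in DMSO and 121, 81.3 and 102 in GSI, without overlap, but its mean log2 levels overlapped. All 4 guides were lower (-0.40 ± 0.55, exact RRA p = 0.00174). Of the hsa-mir-1-1 guides, whose mature RNA is best known from muscle, all 4 were lower as well (-0.77 ± 0.25), with 147, 210 and 138 in DMSO and 120, 76.7 and 99.3 in GSI. A second gene makes the same mature RNA and would remain. All 4 guides of hsa-mir-642a were lower (-0.35 ± 0.06).

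On the high side, hsa-mir-4681 (chromosome 10) had 77.5, 71.5 and 53 in DMSO and 134, 138 and 95.6 in GSI, and all 4 guides were higher (0.97 ± 0.38, exact RRA p = 0.000411, adjusted 0.337). For hsa-mir-583 (chromosome 5) counts were 54.7, 41.2 and 68.1 in DMSO and 88.8, 119 and 98.3 in GSI (1.15 ± 0.78, all 4 guides higher). Those of hsa-mir-4304 were 19.6, 36.2 and 26 in DMSO and 47.7, 57.3 and 46.7 in GSI (1.54 ± 2.15). The groups lay apart for these 3, and hsa-mir-4288, which had the lowest p of the side (0.0003, RRA), lay apart as well (1.15 ± 1.05). For hsa-mir-3180-3, on the low side by p, the median of the 4 guides was 1.42, so it has no clear direction.

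Single guides can reach low p-values through 1 library. Of the 5 guides with the lowest p on the high side, those against HNF4A, VPS33B and RBM44 were high in GSI replicate 1 alone among day 14 libraries. The VPS33B guide had raw counts of 32954, 98777 and 11303 in DMSO and 7067270, 91248 and 22758 in GSI. In GSI replicate 1 its normalized count was 107 times its highest other at day 14. At T0 its raw counts were 238401 and 231722. The HNF4A guide had 5210, 14192 and 1715 in DMSO and 1088077, 13553 and 3546 in GSI. VPS33B, of vesicle traffic to lysosomes, and HNF4A, a liver transcription factor, are unrelated in function, yet their guides kept nearly 1 ratio in every library, 6.33 to 6.96 at day 14 and 7.36 and 6.40 at T0. Whether the reads of these guides follow the growth of cells was not tested, so their share of GSI replicate 1 is given as a count of reads only. Guides over 10 times their highest other day 14 library numbered 52 in GSI replicate 1 and 7 to 24 in the other day 14 libraries. For VPS33B as a gene, the median of 6 guides was 0.23 ± 2.59, and the other guides do not share the difference of the first. By contrast, the strongest USP11 guide, against a deubiquitinase, had 30.8, 51.2 and 32.8 in DMSO and 172, 178 and 263 in GSI, apart in all cultures, while 2 of the 6 USP11 guides were lower.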

How the data were processed

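Per the labels, the authors made the libraries by 2 rounds of PCR from genomic DNA, and their processing notes name bcl2fastq 2.19, FastQC 0.11.5 and MAGeCK 0.5.9.2. The deposited table holds raw read counts per guide and library. A deposited table of normalized values was not used here. Guides carry gene symbols and no sequence or genome build, so positions are those of GENCODE 44 (GRCh38), found for 243 of 243 named genes.

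R 4.3.3 was used throughout. A mean count of at least 10 over 8 libraries was required of a guide, median-ratio size factors were set over the 6 day 14 libraries, and guides were tested with edgeR 4.0.16 (quasi-likelihood). One-sided guide p-values were ranked and combined per gene by robust rank aggregation (alpha 0.25, exact p from uniform order statistics), with at least 4 guides per gene and 3 per microRNA. MAGeCK's own test was not run. P-values were adjusted by Benjamini-Hochberg over all genes, and calls were made under 0.05. Mean log2(normalized count + 1) per gene and library was fitted with limma 3.58.1. The scripts were tested on simulated counts.

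Gene lists and members were chosen with earlier results of these data known, so their counts are descriptions without a test. Named genes are the 15 with the lowest p on each side, the γ-secretase genes with SOX2, NOTCH1 and RBPJ, and the 3 lowest at most, by unadjusted p under 0.05, in each list and side. One item that the rule names is not reported here. The text gives those that a group turns on, and says where another gene was chosen after its values were seen. The 5 microRNAs and 5 guides with the lowest p per side were named likewise. DESeq2 1.42.0, other size factors, count filters, alpha values, sums over guides, a replicate block, a joint fit and leaving out each library were tried as alternatives. The sources used here name no molecular identifiers, so PCR copies count as reads and depth speaks to counting error only.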

Additional observations from a re-analysis of the deposited data

How the results depend on the processing

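The counts of genes and guides called after adjustment stayed at 0 on both sides under the other settings, with these exceptions. Without GSI replicate 1, 1 gene was called higher (PDP1), so leaving out single libraries gave 0 to 1. With library totals as size factors, 5 guides were called lower and 5 higher. That setting moved the median of all genes from -0.02 to -0.22, since the VPS33B guide enters the total of GSI replicate 1. Guides high in 1 library alone among those of day 14 (VPS33B, HNF4A, RBM44, EN2) are among the 10. Sums of a gene's guides and the mean log2 level of a gene called none, with 464 and 200 genes lower and 285 and 695 higher at an unadjusted p under 0.05. At the study's stricter threshold, the 10 genes on the high side were 6 with a count minimum of 50 and 5 to 12 when single libraries were left out, the lowest without GSI replicate 2. The 1 gene on the low side became 2 with library totals, 0 in the joint fit of all 8 libraries and with a count minimum of 50, and 0 to 5 without single libraries, 0 without DMSO replicate 3 or GSI replicate 2 and 5 without GSI replicate 1. At the looser threshold, the 27 genes on the high side were 14 with a count minimum of 50 and 31 to 70 without single libraries, and the 3 on the low side were 25 with library totals, 5 with library totals less the top guide and 3 to 35 without single libraries.

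Replicate numbers are shared between the arms, but deviations from the group means correlated at 0.28, 0.06 and 0.12 for numbers 1, 2 and 3, so the samples were not taken as paired. Every library correlated best with its own number, a hint from the data only. With a replicate block, genes and guides called stayed at 0, and the low side held 0 genes at the study's stricter threshold.

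SOX2 ranged from -1.49 to -0.27 over the other settings, always negative, with unadjusted p-values from 0.000605 to 0.0431. List directions turned only where the text says so, among the 15 lists recomputed, and the cause was not tested. For microRNAs, only the count called was recomputed, in the settings that refitted the guides, and it is not given here. Values of single microRNAs come from the first fit alone. Leaving out the guides raised in GSI replicate 1 alone among day 14 libraries, chosen after seeing the data, called no gene either.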
